A study of Mus musculus with 14 samples.

Results

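The Hox cluster genes are the 39 protein-coding genes of the mouse table whose symbol is Hoxa, Hoxb, Hoxc or Hoxd followed by a number only, taken from 35271 genes by their Ensembl IDs. They were followed in 14 single cells labelled GL_M, glomerular mesangial cells of 1 wild-type male C57BL/6 mouse of 8 weeks, all in 1 group. Glomeruli were enriched with magnetic beads, dissociated with enzymes, and their cells were captured and lysed in separate chambers of a Fluidigm C1 instrument. With 1 animal and 1 group there is no comparison of conditions and no biological replicate, and every value below describes these cells. The labels spell the strain C56BL/6. The authors deposited RPKM, which scales the reads of a gene by its length in kb and by the cell's total. Below, a gene counts as detected where its RPKM was 1 or more. Fewer transcripts and lost transcripts cannot be told apart in a single cell.

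Hox genes encode homeodomain transcription factors that give cells a position along the body axis. In mammals they lie in 4 clusters, and genes with the same number in different clusters, called paralogs, resemble each other more than their neighbours do. Within a cluster the low numbers are used first and towards the head, and the high numbers later and towards the tail. In the mouse kidney, paralogs of group 11 are needed for the nephron-forming mesenchyme and paralogs of group 10 for the stroma, the lineage from which mesangial cells come. Adult cells often keep a record of their origin in the Hox genes they transcribe.

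The cells carried the transcripts of their label, and 2 of them also carried others. Gata3, Serpine2, Ptn and Agtr1a, of a list of 8 mesangial markers, were detected in all 14 cells, and each cell had 6 to 8 of the 8. GL_M_30 had 10 of 13 endothelial markers at an RPKM of at least 10, against 0 to 5 in the other cells, and GL_M_55 had 5 of 11 podocyte markers at that level, against 0 to 2. Of 7 markers of tubule and collecting duct and 3 erythroid markers, 0 were detected in any cell. Of 8 smooth muscle and renin cell markers 5, of 7 macrophage and leukocyte markers 3 and of 4 parietal epithelial markers 2 were detected somewhere. The cells had 6.60 to 23.8 M reads and 1770 to 5277 detected genes. All 91 pairs of cells differed in their values, with Pearson correlations across genes of 0.360 to 0.618.

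Hox genes were detected in nearly every cell, in small sets that differed between cells. A Hox gene was detected in 13 of 14 cells, in numbers from 0 to 7 genes per cell with a median of 3.5. No 2 cells had the same set, and whether other sparsely detected genes differ less between cells was not tested. Of the 39 genes, 16 were detected in at least 1 cell (41.0%), 14 reached an RPKM of 10, and 0 were detected in every cell. Of the 21396 protein-coding genes in the table, 41.8% were detected in at least 1 cell, so the share of Hox genes found in some cell was close to theirs. Counted over genes and cells, 41 of 546 Hox values (7.51%) were at 1 or more. For the 21396 protein-coding genes in the same 14 cells 37336 values were, a higher share, so Hox genes were detected less often per cell. Over all genes of the table, 29.2% were detected in at least 1 cell. A level of 10 in some cell was reached by 35.9% of the Hox genes and by 33.9% of protein-coding genes. Among detected genes it was reached by 14 of 16 Hox genes and by 81.2% of protein-coding genes. Detection in only 1 or 2 cells applied to 9 of 16 Hox genes and to 42.3% of detected protein-coding genes, and 0.701% of protein-coding genes were detected in every cell. Where detected, Hox values had a median RPKM of 21.3 (41 values), and protein-coding genes had 34.1.

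**Figure D1:**
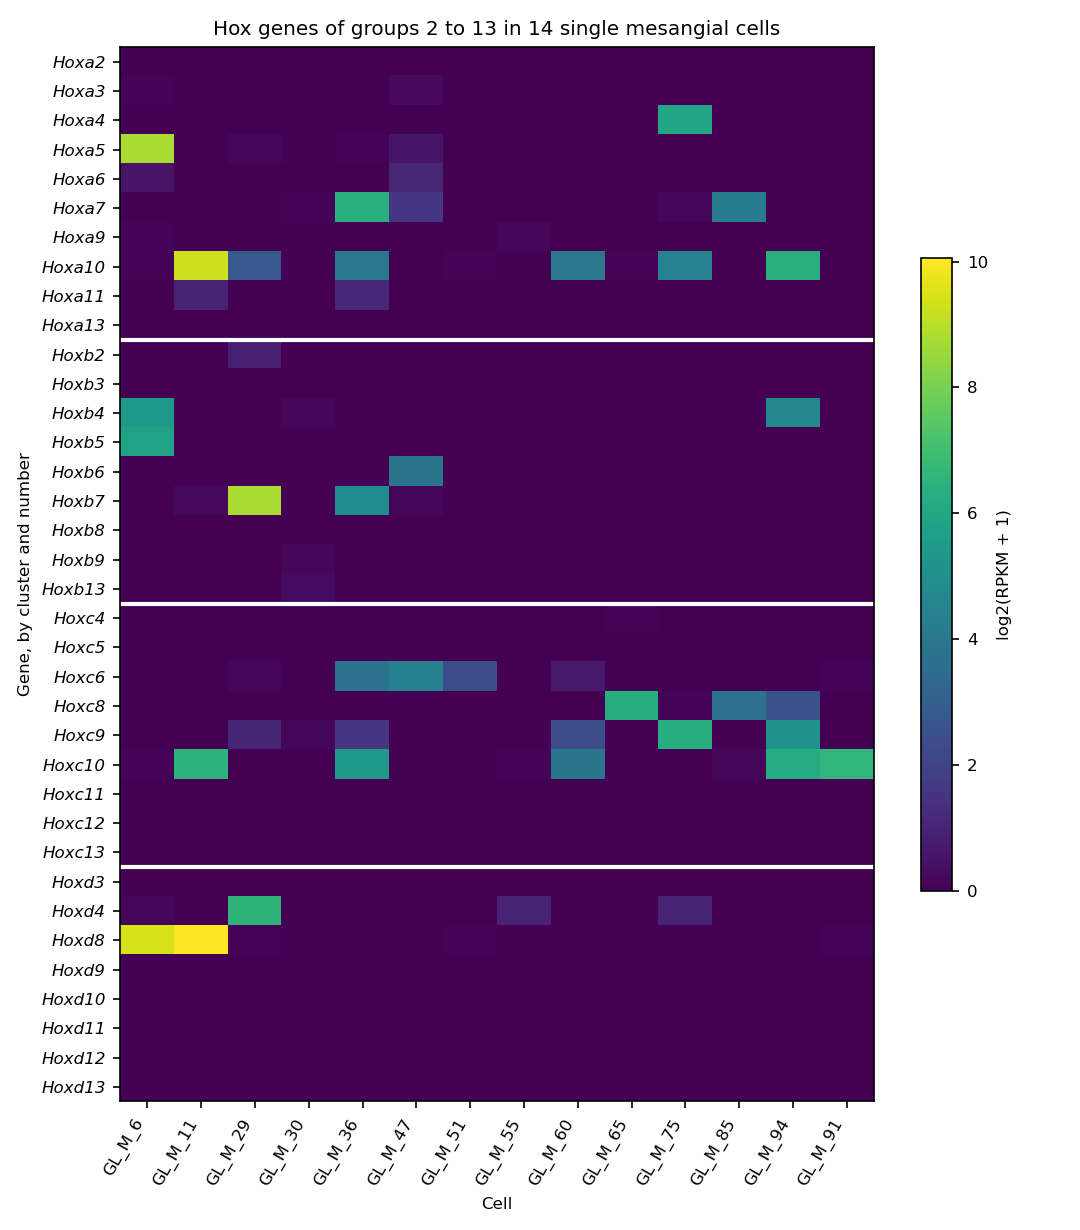
Level of the Hox genes of groups 2 to 13 (rows, by cluster and number; white lines part the clusters) in the 14 cells (columns), as log2(RPKM + 1). Bright cells are scattered and almost all lie between numbers 4 and 10, with Hoxa10, Hoxc10 and Hoxc9 bright in the most columns.

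Most values were at 0, and the values above 0 spanned a wide range. Of the 546 values, 458 (83.9%) were listed at 0, 47 lay above 0 and below 1, 12 from 1 to below 10 and 29 at 10 or more. Read numbers could be recovered from the steps of the RPKM values. Each value of at least 10 rested on at least 171 reads and each value of at least 1 on at least 12. Of the 47 values above 0 and below 1, 41 were 1 to 3 reads. For 31 of the 47 the same gene stood at 10 or more in another cell, and these 31 had a median of 0.0428% of that cell's level. The 3 reads that mark the counting floor correspond, for a transcript of 2 kb, to an RPKM of 0.063 to 0.227. The cDNA was amplified and no molecular identifiers are mentioned, so these read numbers cover counting error only. A value of 0 is given here as listed, since few genes of any kind were found in every cell.

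The detected genes lay almost all in the middle of the clusters. In groups 4 to 10, 15 of 22 members were detected, in 13 cells, and they held 99.9% of the summed Hox RPKM. Of the 8 members of groups 1 to 3, 0 were detected, and of the 9 members of groups 11 to 13 only Hoxa11 was, at 1.22 in GL_M_36 and 1.02 in GL_M_11. By cluster, 6 of 11 Hoxa genes, 4 of 10 Hoxb genes, 4 of 9 Hoxc genes and 2 of 9 Hoxd genes were detected. A Hoxc gene was detected in 11 cells, a Hoxa gene in 9, a Hoxb gene in 5 and a Hoxd gene in 5.

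**Figure D2:**
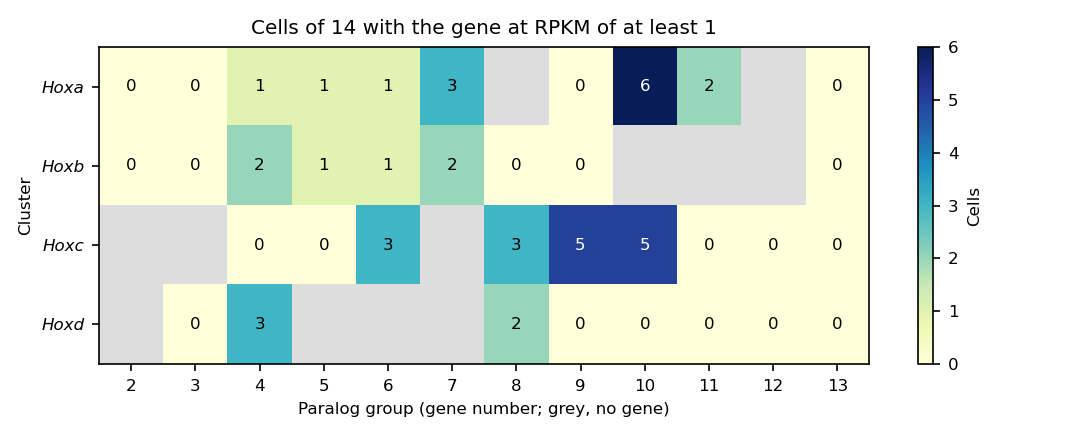
Number of the 14 cells in which each Hox gene of groups 2 to 13 was detected, by cluster (rows) and paralog group (columns); grey fields hold no gene. Hoxa10 with 6 cells and Hoxc9 and Hoxc10 with 5 each have the highest numbers, and groups 2, 3, 12 and 13 are at 0 throughout.

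The summed levels were set by few cells, and the order of the clusters depended on how cells were weighted. Of the Hox RPKM summed over all cells, Hoxd genes held 42.2%, Hoxa genes 31.2%, Hoxb genes 13.7% and Hoxc genes 12.9%. As the median of the shares within the 13 cells with a Hox gene detected, which weights cells equally, Hoxc genes held 47.7%, Hoxa genes 35.1%, Hoxb genes 0.122% and Hoxd genes 0.0698%. Hoxc genes were thus lowest in the sum and highest in the median. The summed Hoxd share came mostly from Hoxd8 in GL_M_6 and GL_M_11, and was 30.3% without GL_M_11. Group 8 held 42.3%, group 10 held 24.5%, group 7 held 12.9% and group 5 held 11.4%. Without GL_M_6 the share of group 5 was 0.0230%, and without GL_M_29 the Hoxb share was 4.30% and that of group 7 was 3.39%. Without GL_M_11 the share of group 10 was 13.9%, that of group 7 was 21.7%, that of group 5 was 19.0% and the Hoxb share was 23.0%.

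Group 10 was the one found in the most cells. Hoxa10 or Hoxc10 was detected in 7 of 14 cells, and the remaining paralog, Hoxd10, was listed at 0 in all 14. Because Hoxa10, Hoxc10 and the neighbouring Hoxc9 recurred together, their homeoboxes are shown with that of Hoxd10. The homeobox is the stretch of 180 bases that encodes the DNA-binding homeodomain. The sequences were read from GENCODE M21 transcripts (GRCm38), 5′ to 3′ on the coding strand, and capitals mark bases that differ from Hoxa10.
Hoxa10: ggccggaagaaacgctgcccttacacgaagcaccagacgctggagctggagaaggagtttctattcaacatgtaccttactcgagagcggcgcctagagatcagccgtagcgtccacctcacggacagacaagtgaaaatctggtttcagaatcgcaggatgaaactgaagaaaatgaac
Hoxc10: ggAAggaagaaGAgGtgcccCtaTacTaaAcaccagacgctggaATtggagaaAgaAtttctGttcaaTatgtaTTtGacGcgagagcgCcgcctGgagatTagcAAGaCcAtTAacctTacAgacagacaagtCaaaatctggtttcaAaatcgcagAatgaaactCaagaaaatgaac
Hoxd10: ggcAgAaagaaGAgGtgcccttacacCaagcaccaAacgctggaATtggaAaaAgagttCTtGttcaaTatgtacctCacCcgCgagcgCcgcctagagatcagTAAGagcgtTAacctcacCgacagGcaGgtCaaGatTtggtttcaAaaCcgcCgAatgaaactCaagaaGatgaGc
Hoxc9: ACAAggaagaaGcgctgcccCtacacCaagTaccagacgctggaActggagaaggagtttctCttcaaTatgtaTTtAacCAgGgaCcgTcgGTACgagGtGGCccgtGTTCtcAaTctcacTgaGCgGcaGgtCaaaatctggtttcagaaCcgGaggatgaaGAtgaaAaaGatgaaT
The Hoxc10 homeobox differs from that of Hoxa10 at 35 of 180 bases and in 4 of 60 codons as amino acids. For Hoxd10 the numbers are 38 bases and 3 codons, and for Hoxc9 they are 46 bases and 11 codons. The longest identical stretch was 14 bases between Hoxa10 and either paralog and 17 bases between Hoxa10 and Hoxc9. Over whole transcripts Hoxa10 shared 0 runs of 50 bases with any other annotated gene. Hoxc10 shared 6.40% of its runs, all with Hoxc5, which overlaps its first exon on the same strand, and Hoxc5 was listed at 0 in all 14 cells.

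Hoxa10 (ENSMUSG00000000938, chromosome 6 from 52231197 to 52240854, minus strand) was the Hox gene with the highest mean log2 level. It ranged from 0 over a median RPKM of 0.0710 to 624 in GL_M_11, on 8466 reads. It was at 79.6 in GL_M_94, 21.3 in GL_M_75, 15.3 in GL_M_36, 15.0 in GL_M_60 and 5.89 in GL_M_29, and below 0.1 in the other 8 cells. These 6 detecting cells are 42.9% of the 14, with an exact 95% Clopper-Pearson interval of 17.7% to 71.1% that covers only the sampling of 14 cells. Its levels where detected spread widely, with GL_M_11 far above the next cell.

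Hoxc10 (ENSMUSG00000022484, chromosome 15 from 102966796 to 102971893, plus strand) followed, with more even levels. It ranged from 0 over a median of 0.0669 to 97.8 in GL_M_91, and stood at 88.8 in GL_M_11, 74.4 in GL_M_94, 42.7 in GL_M_36 and 13.5 in GL_M_60. All 5 detecting cells were above 10, and each rested on 612 to 3311 reads. In 5 further cells it had 1 or 2 reads. GL_M_91 had Hoxc10 as its only detected Hox gene.

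Hoxc9 (ENSMUSG00000036139, chromosome 15 from 102976439 to 102985099, plus strand), the neighbour of Hoxc10, was detected in 5 cells with a median of 0. It was at 75 in GL_M_75, 34.8 in GL_M_94, 4.22 in GL_M_60, 1.98 in GL_M_36 and 1.08 in GL_M_29. Only GL_M_75 and GL_M_94 were above 10, so its number of cells depends on the detection limit. The other group 9 members were not detected. Hoxa9 had 1 read in each of 3 cells, Hoxb9 3 reads in GL_M_30, and Hoxd9 was at 0 throughout.

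All 5 cells with Hoxc9 also had Hoxa10, which was detected in 1 cell more. Of the 669 protein-coding genes detected in exactly 5 cells, 0.149% had all 5 among the 6 Hoxa10 cells, namely Hoxc9 alone, and 6.58% had at least 4 there. The pair was picked after its values were seen, and the cells share 1 mouse and differ in depth, so this is a description. Hoxa10 and Hoxc10 were detected together in 4 cells, and Hoxc9 and Hoxc10 in 3. GL_M_36, GL_M_60 and GL_M_94 had all 3 genes. GL_M_11 had Hoxa10 and Hoxc10 without Hoxc9, GL_M_29 and GL_M_75 had Hoxa10 and Hoxc9 without Hoxc10, and GL_M_91 had Hoxc10 without the others. The other pairs of Hox genes seen together were so in 1 cell (39 pairs) or in 2 cells (7 pairs).

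**Figure D3:**
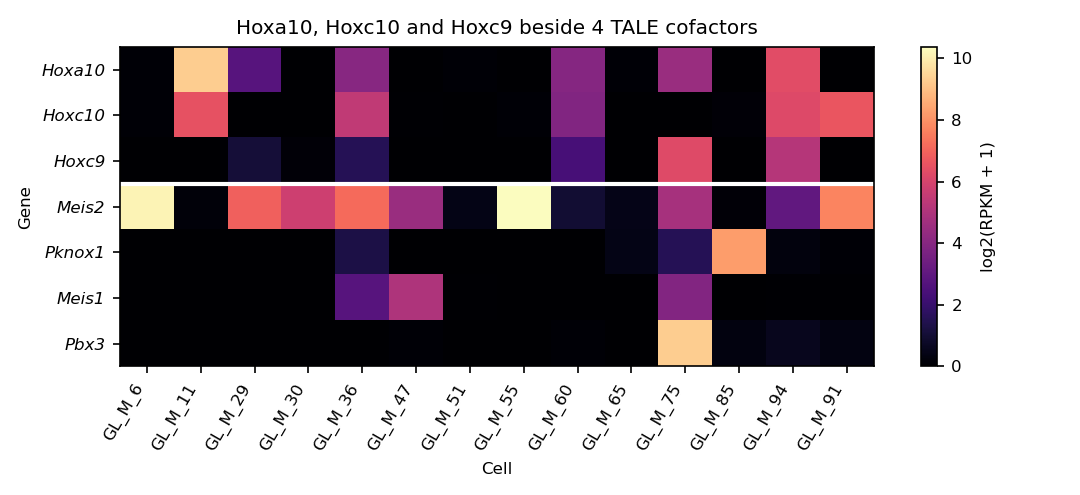
Level, as log2(RPKM + 1), of Hoxa10, Hoxc10 and Hoxc9 (above the white line) and of Meis2, Pknox1, Meis1 and Pbx3 (below it) in the 14 cells. Hoxc9 is lit only in columns where Hoxa10 is, while Meis2 is lit in columns with and without these Hox genes.

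Hoxd8 (ENSMUSG00000027102, chromosome 2 from 74704615 to 74707933, plus strand), a group 8 gene, had the highest level of any Hox gene. It ranged from 0 over a median of 0 to 1066 in GL_M_11, on 14133 reads, and was at 700 in GL_M_6. In 4 more cells it had 1 or 2 reads, and in the other 8 it was at 0, so it was very high in 2 cells and near absent elsewhere. Of its neighbours, Hoxd9 was at 0 in every cell, and Hoxd4 was at 0.138 in GL_M_6 and 0 in GL_M_11. Hoxd8 shared 0 runs of 50 bases with another annotated gene.

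The Hoxc members of groups 6 and 8 were detected in 3 cells each. Hoxc8 (ENSMUSG00000001657, chromosome 15 from 102990607 to 102994111, plus strand) ranged from 0 over a median of 0 to 76.8 in GL_M_65, with 12.6 in GL_M_85 and 4.91 in GL_M_94. Hoxc6 (ENSMUSG00000001661, chromosome 15 from 102998257 to 103011881, plus strand) reached 20.4 in GL_M_47, 12.7 in GL_M_36 and 4.13 in GL_M_51, with 0.627 in GL_M_60 and a median of 0. These neighbours had 0 cells in common, which with 3 cells each is only a description. Of 11 neighbour pairs with both genes detected in some cell, 5 were detected together anywhere. For pairs of different clusters and groups this was 31 of 82. Hoxc8 in GL_M_65 and Hoxc6 in GL_M_51 were the only Hox gene detected there. Hoxb8, the remaining paralog of group 8, was at 0 in all cells.

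Group 7 was detected in 4 cells. Hoxb7 (ENSMUSG00000038721, chromosome 11 from 96286623 to 96290162, plus strand) ranged from 0 over a median of 0 to 438 in GL_M_29, on 3364 reads, with 28.0 in GL_M_36. Hoxa7 (ENSMUSG00000038236, chromosome 6 from 52214491 to 52221854, minus strand) reached 82.5 in GL_M_36, 18.3 in GL_M_85 and 2.05 in GL_M_47, with a median of 0. GL_M_36 had both paralogs. Hoxa7 shares 20.4% of its exon bases with Hoxaas3 on the opposite strand, and Hoxaas3 was at 0 in every cell.

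**Figure D4:**
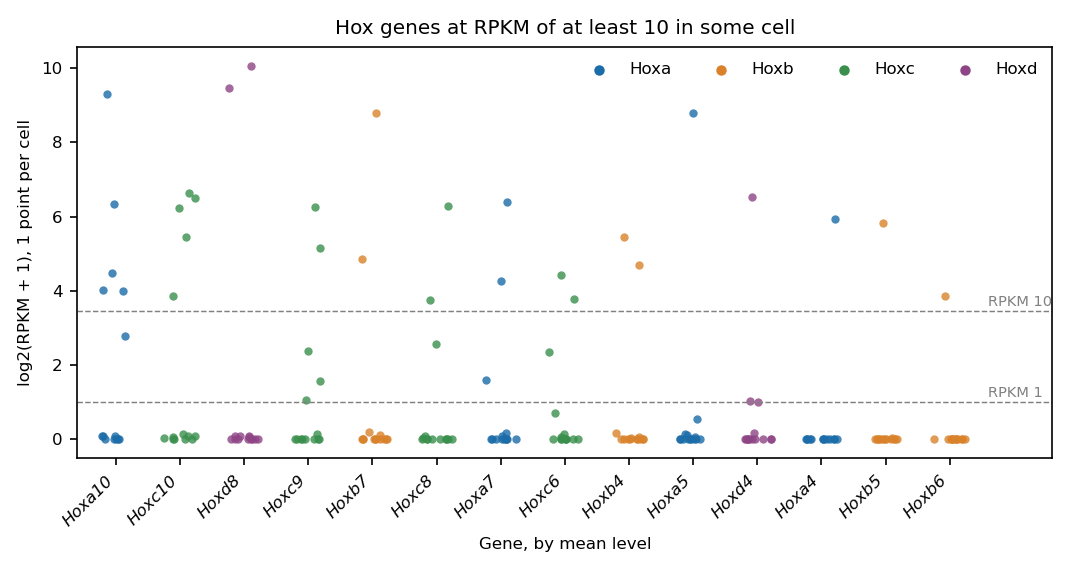
RPKM of the 14 Hox genes that reached 10 in some cell, on a log2(RPKM + 1) axis, with 1 point for each of the 14 cells and colours for the clusters; dashed lines mark RPKM 1 and 10. Most points of every gene sit at or near 0, and the points above the upper line are 1 to 5 per gene.

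The other 6 genes that reached 10 did so in 1 or 2 cells. Hoxa5 was at 443 in GL_M_6, on 6718 reads, and at most 0.468 elsewhere. Hoxb5, its paralog, was at 56.0 in the same cell, and Hoxb4, the neighbour of Hoxb5, was at 42.6 there and at 25 in GL_M_94. GL_M_6 thus held 3 genes of groups 4 and 5 together with Hoxd8. Hoxa4 was at 60 in GL_M_75 and at 0 in the other 13 cells. Hoxb6 was at 13.6 in GL_M_47 alone. Hoxd4 was at 91.4 in GL_M_29 and just past the limit in GL_M_55, at 1.03, and GL_M_75, at 1.01, on 14 and 12 reads. Hoxd4 shares 39.1% of its exon bases with Gm28230, a gene that also spans Hoxd3, and the sources used here do not say how reads in such overlaps were counted.

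Only 2 detected genes stayed below 10. Hoxa6 reached 1.10 in GL_M_47, on 12 reads, and Hoxa11 was named above. Hoxa11, of the group needed for nephron formation, had 36 reads in GL_M_36, 18 in GL_M_11 and 2, below the detection limit, in GL_M_60. Its neighbour Hoxa10 was detected in these cells and also in GL_M_29, GL_M_75 and GL_M_94, where Hoxa11 had 0 reads. Hoxa11 shares 35.0% of its exon bases with Hoxa11os on the opposite strand, which was at 0 throughout. The paralog Hoxc11 was at 0 in all 14 cells and Hoxd11 had 1 read in GL_M_36.

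The remaining 23 genes stayed below 1 in every cell. Of these, 10 were above 0 in some cell, from 0.0316 for Hoxd13 in GL_M_30 to 0.863 for Hoxb2 in GL_M_29, among them Hoxa3, Hoxa9, Hoxb1, Hoxb2, Hoxb9, Hoxb13, Hoxc4, Hoxd11 and Hoxd13. The other 13 were at 0 in all cells and were Hoxa2, Hoxa13, Hoxb3, Hoxb8, Hoxc5, Hoxc11, Hoxc12, Hoxc13, Hoxd1, Hoxd3, Hoxd9, Hoxd10 and Hoxd12. For a gene found in 0 of 14 cells the exact interval reaches up to 23.2% of cells. Listed at 0 in every cell were also 44.3% of protein-coding genes. The zeros of Hoxb3 and Hoxd3 are less certain, since 52.9% and 53.1% of their exon bases lie in a further annotated gene, Hoxb3os and Gm28230.

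Seen from the cells, the sets differed in size and in position along the clusters. GL_M_36 had the most detected Hox genes, 7, from group 6 to group 11, and also the most detected genes of any kind, 5277. GL_M_94 had 5, from group 4 to group 10, with 2848 genes. GL_M_6, GL_M_11, GL_M_29, GL_M_47 and GL_M_75 had 4 each, GL_M_60 had 3 and GL_M_85 had 2. GL_M_51, GL_M_55, GL_M_65 and GL_M_91 had 1 each. GL_M_47 had the second highest number of genes of any kind, 4842, and 4 Hox genes, and GL_M_60, the most deeply read cell, had 3 with the fewest genes, 1770. The part of depth and of gene number in these counts was not tested.

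**Figure D5:**
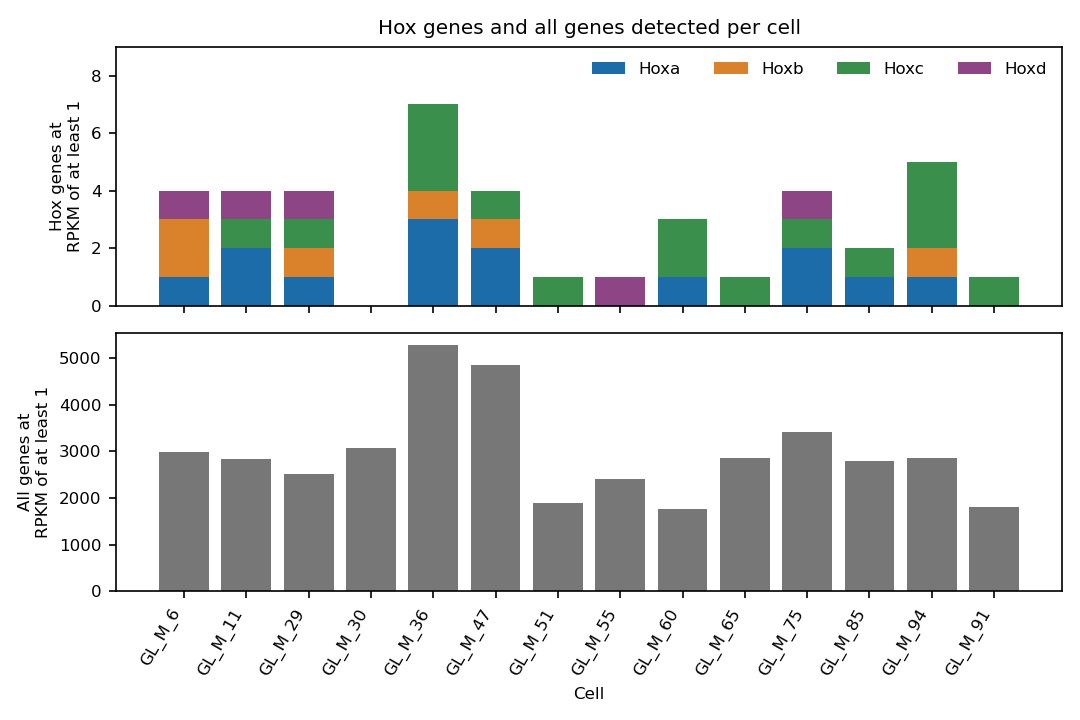
Number of Hox genes detected in each cell, stacked by cluster (upper panel), above the number of all genes at that level (lower panel). Hox counts run from 0 in GL_M_30 to 7 in GL_M_36, and cells with similar numbers of genes differ in their Hox counts.

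A member of groups 9 to 13 was detected in 7 cells, and 5 of these also had a member of groups 4 to 8. In the other 7 cells, 6 had members of groups 4 to 8 only and GL_M_30 had none. The summed Hox RPKM ran from 0.729 in GL_M_30 over a median of 87.5 to 1779 in GL_M_11, at most 0.312% of a cell's RPKM. In the 13 cells with a Hox gene detected, the highest gene held a median of 58.9% of that sum. GL_M_30 and GL_M_55, the cells with the most endothelial and podocyte markers, had the lowest Hox sums, 0.729 and 1.18. GL_M_30 had a summed RPKM of 4128 over the 13 endothelial markers, and GL_M_55 of 2178 over the 11 podocyte markers. The part of these other transcripts in the low Hox values was not tested.

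Since 23 of the 39 genes were never detected, pairs were compared where both genes were detected in some cell. Of the 35 pairs of neighbours within a cluster 11 were of this kind, and 5 of them were detected together in at least 1 cell. In these 11 pairs both genes were detected in 17.8% of the 45 instances in which a cell had at least 1 of them. For 10 such pairs of paralogs this share was 28.6% of 35 instances, for 17 pairs within a cluster that are not neighbours 7.32% of 82, and for 82 other pairs 10.6% of 388. Pairs share genes and cells, so these shares are not independent and were not tested. Over all 35 neighbour pairs the share was 10.8%, and 3.45% with a limit of RPKM 5, and the pairs counted at 1 include low values of Hoxa11 and Hoxc9. Of the 10 instances with both paralogs, 4 were Hoxa10 with Hoxc10, and others rest on Hoxa6 at 1.10 or Hoxd4 at 1.01. Higher limits were not applied to the paralog pairs.

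Of 20 noncoding genes in or within 10 kb of a cluster, 4 were detected and 13 were at 0 in all cells. Of the 13092 annotated genes of other types than protein-coding in the table, 9.78% were detected. Hoxb5os was at 273 in GL_M_47, where Hoxb6 was at 13.6 and Hoxb5 at 0. Haglr, antisense in the Hoxd cluster, was at 12.7 in GL_M_91, where Hoxd8 was at 0.0683, and Gm11539 reached 1.73 in GL_M_60. Hotairm1, in the Hoxa cluster, was at 16.6 in GL_M_30, the cell with no Hox gene detected. Gm28230 is a protein-coding gene that shares exon bases with Hoxd3 and Hoxd4 on the same strand. It was chosen after its values were seen, and was at 32.0 in GL_M_30 and at 0 in the other 13 cells. The values of 0 for Hoxd3 and Hoxd4 in GL_M_30 are therefore less certain. The sources used here do not say whether counting used strand, so reads of overlapping antisense genes cannot be told apart. Listed at 0 throughout were Hotair, which lies in the Hoxc cluster, Hottip, at the end of the Hoxa cluster, Hoxa11os, Hoxaas2, Hoxaas3, Hoxb3os, Gm11536, Gm14396, Gm14424, Gm14426, Gm15050, Gm28309 and Gm29430. Gm53, Hoxd3os1 and Gm28793 stayed below 1. Of 16 protein-coding genes flanking the clusters 10 were detected, beside 41.8% of all protein-coding genes. They were led by Tax1bp1 in 13 cells, Cbx5 in 11, and Atf2 and Hnrnpa3 in 9 each. Evx1 and Evx2, homeobox genes at the cluster ends, were not detected, nor were Skap1, Ttll6, Calcoco2 and Smug1.

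Cofactors of Hox proteins were found in most cells. TALE homeodomain proteins of the Pbx, Meis and Pknox families bind DNA together with Hox proteins. Of 8 such genes analysed here 6 were detected, beside 41.8% of all protein-coding genes. Of the 8, 0 were detected in every cell, and 10 of 14 cells had at least 1. Meis2 ranged from 0.112 over a median of 24.0 to 1320 in GL_M_55, with 1131 in GL_M_6, and was detected in 9 cells. Pknox1 reached 305 in GL_M_85 and Meis1 30.8 in GL_M_47, each detected in 3 cells. Pbx3 was at 621 in GL_M_75 alone. Pbx2 and Pbx4 reached 2.12 and 1.33, and Meis3 and Pknox2 were not detected.

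Of the 13 cells with a Hox gene, 9 also had one of these 8 genes, and 8 had a Meis gene. GL_M_11, GL_M_51, GL_M_60 and GL_M_65 had a Hox gene and none of the 8 at 1 or more, with Meis2 at 0.143, 0.361, 0.962 and 0.399. GL_M_30, with no Hox gene, had Meis2 at 53.1. GL_M_11, without any of the 8, had the highest Hox sum.

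Most of the chromatin genes known to act on Hox clusters were detected in part of the cells, and 0 of them in every cell. For comparison, 41.8% of protein-coding genes were detected in at least 1 cell. Polycomb proteins keep Hox genes silent, and 16 of 19 of their genes were detected. Rbbp4, a histone-binding subunit, was detected in 9 cells with up to 190, Suz12, a core subunit of the methylating complex, in 5 with up to 194, Rbbp7 in 4 with up to 425, and Ezh1, a methyltransferase, in 5 with up to 84.0. Ezh2, the other methyltransferase, Cbx2 and Cbx8 were not detected. Trithorax proteins and demethylases oppose this silencing, and 11 of 12 genes were detected. Kmt2d, a histone methyltransferase, was detected in 12 cells with a median of 65.1, Kdm6b, a demethylase of the polycomb mark, in 11, Psip1 in 9 and Dpy30 in 6, and Men1 was not detected. All 6 genes of chromatin architecture were detected, Stag2 and Stag1 in 7 cells each, Smc3, Rad21 and Ctcf in 5 each and Smc1a in 4.

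For the lists below too, the share of protein-coding genes detected in at least 1 cell was 41.8%. Of 9 genes for regulators that act before Hox genes in the embryo, 5 were detected, in 6 cells in all. Among them were the retinoid X receptor genes Rxrb, at 85.1 in GL_M_30, and Rxra, at 30.8 in GL_M_47. The others were the retinoic acid receptor genes Rarb, at 135 in GL_M_75, Rarg, at 6.13 in GL_M_30, and Rara, at 7.95 in GL_M_47. Cdx1, Cdx2, Cdx4 and Rxrg were not detected. Of 8 kidney genes that work with Hox proteins or in the same lineages, Wt1 was detected in 7 cells with up to 612 and Ret in GL_M_55 alone at 24.0. Eya1, Six2, Pax2, Gdnf, Osr1 and Foxd1 were listed at 0 in all 14 cells. Foxd1 marks the stromal progenitors of the embryonic kidney, and Six2 those of the nephron.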

How the data were processed

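The data were 1 table of RPKM per gene for 14 cells, made by the authors. The submitters' processing notes name TopHat2 2.0.12, HTSeq 0.6.1 and mm10. The sources used here give no annotation, strand setting, rule for reads in overlapping genes or filter on cells. Symbols, coordinates and overlaps came from GENCODE M21 (GRCm38, also called mm10), and all 39 Hox genes were found.

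RPKM carries no depth, so each cell's read total was taken from the commonest product of RPKM and length over 14953 genes with 1 transcript. In each cell 84.7% to 89.7% of the values below 50 reads then came within 0.02 of a whole number. For genes with several transcripts, the mean transcript length made 53.2% to 57.6% of values whole and the summed exon length 4.39% to 5.54%, so RPKM appears scaled to a mean transcript length. Of the 26 Hox genes above 0, 21 gave whole reads with that length and 4 with a length fitted to their steps. Hoxb6 did not. For these genes the tolerance grew with the read number, so the largest values counted as whole in any case. The fitted lengths were chosen to make the values whole.

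Detection was an RPKM of at least 1. Log levels used a pseudocount of 1. Intervals on shares are Clopper-Pearson at 95%. No test was run, since 1 mouse gives no replicates. Genes that reached 10 in some cell are named with values, the 8 with the highest mean log2 level in full, and of each other list the 4 highest and the undetected genes. Shared sequence was counted as runs of 50 bases over all GENCODE M21 transcripts. The members and lists were chosen with earlier results of these data known. Some genes of the lists are not reported here. Python 3.11.15, numpy 2.4.6, pandas 2.3.3 and scipy 1.17.1 were used. Alternatives changed the detection limit, low values, the cells, the scaling and the pseudocount.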

Additional observations from a re-analysis of the deposited data

How the results depend on the processing

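Counting any value above 0 gave 26 Hox genes in some cell in place of 16, and a median of 6 per cell in place of 3.5. The share of instances with both neighbours detected, over all neighbour pairs, was 10.8%, and was 3.45% at a limit of RPKM 5 and 3.57% at a limit of 10. The median of shares within cells put the Hoxd share at 0.0698% and changed the order of the clusters. The mean log2 level over the 39 genes had a median of 0.295 over cells, with a pseudocount of 0.1 it was -2.66, since a 0 then counts as a negative level, and over genes whose mean RPKM reached 1 it was 0.737. The cause of the other shifts was not tested. Leaving out each cell in turn, chosen after seeing the data, gave 14 to 16 detected genes, a median of 3 to 4 per cell, a Hoxd share of 30.3% to 45.7%, a Hoxb share of 4.30% to 23.0%, a group 5 share of 0.0230% to 19.0% and a share of neighbours detected together of 9.09% to 12.1%. Of 700 values under alternatives, 23 moved by more than 1.5 times for counts or by more than the spread for other values. That spread was wide, so large shifts could stay within it. As medians of shares within cells, Hoxb went from 13.7% to 0.122% and Hoxc from 12.9% to 47.7%, and neither counted as moved. Nor did the Hoxa10 median RPKM, at 0.071 and then 0 with low values set to 0. The number 23 therefore does not measure stability. Reversals are not counted here, and the order of the clusters did change. Hoxc9 was in 2 cells at limits of 5 and 10 in place of 5. No paired analysis was possible because all cells form 1 group. Of the 47 values above 0 and below 1, 41 were 1 to 3 reads, and the part of depth in them was not tested.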
